A study of Macaca mulatta with 2 samples.

Results

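The genes described here encode the classical axon guidance ligands and their receptors, measured by RNA sequencing in the prefrontal cortex of infant rhesus macaques (Macaca mulatta). They were taken from the count table by symbol and comprise the semaphorins, plexins and neuropilins, the ephrins and Eph receptors, the Slits and Robos, and the netrins with DCC and the UNC5 receptors. Of 33618 genes in the table, 68 matched, and 66 of these reached a level of 1 CPM (reads scaled to a library of 1000000 reads on genes) in at least 1 of the libraries. The 2 others were SEMA3A, which had 8 control reads (0.472 CPM) and 0 after sevoflurane, and EPHA1, with 0 reads in both. Just inside the limit lay SEMA4B, at 1.22 CPM in the sevoflurane library, and NTN5, at 1.32 CPM there. Of the 66 genes, 34 were ligands and 32 receptors.

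The control library (CON) came from 1 control animal and the sevoflurane library (SEV) from 1 animal anesthetized repeatedly with this inhaled anesthetic, both listed as postnatal day 28. The labels give exposures of 4 h at 2.5 to 3% sevoflurane on about postnatal day 7 and again at 14 and 28 days, whereas the methods place the later exposures on other days. They name neither a strain nor a genotype, and the handling of the control animal is not given in the sources used here. The design has 3 animals per group, and the other animals were not analysed here. With 1 library per group there was no replicate and no test, so every difference compares these 2 libraries and not the conditions.

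Guidance cues are secreted or membrane-bound proteins that attract or repel growth cones through receptors on the axon. After axons have reached their targets, many of the same proteins act in dendrite growth, synapse formation and pruning, and also in blood vessels and oligodendrocytes. Semaphorins act mainly through plexins, with neuropilins as co-receptors of the secreted class 3 members. Ephrins bind Eph receptor tyrosine kinases on neighbouring cells, Slits repel axons through Robo receptors, and netrins attract through DCC and repel through UNC5 receptors.

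The CON library held 16960880 reads and the SEV library 9839105. Ratios are given as the log2 ratio of TMM-scaled CPM, SEV over CON, with a prior count of 2. Each 95% interval covers counting error only and leaves out the variation between animals. The 7 Y-linked genes on the list held 3 reads in CON and 4308 in SEV, which are the reads of a male animal in SEV and not in CON. Animal, exposure and sex therefore differ together and cannot be told apart. No transcript lengths were used, so levels are compared between libraries and not between genes. In this bulk tissue, fewer cells of a type and less RNA per cell cannot be told apart.

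Between the 2 libraries, 7 of the 66 guidance genes were at least 2-fold higher in SEV with an interval that excluded equality, or 10.6%, against 7.56% of all 18050 genes tested. The 7 were EPHA8, SEMA3D, SEMA7A, NTN5, EFNA2, SEMA3F and EPHB2. A further 5 genes, PLXNC1, EFNB2, PLXNB3, ROBO1 and SLIT1, were at least 2-fold lower, or 7.58%, against 5.47% of all genes. SEMA3D, NTN5 and SEMA4B reached 1 CPM in the SEV library alone and so had to be higher there. Among the 63 guidance genes at 1 CPM or more in both libraries, 5 were higher (7.94%, against 4.37% of such genes) and 5 were lower (7.94%, against 3.75%).

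Smaller differences ran in both directions. Beyond counting error, whatever its size, 27 of the 66 genes were higher in SEV (40.9%, against 28.4% of all genes) and 18 were lower (27.3%, against 28.1%). The remaining 21 had intervals that included equality. The median log2 ratio was 0.09, beside -0.0048 over all genes tested, and the values of the genes ranged from -1.54 (PLXNC1) to 2.77 (EPHA8). Ligands had a median of 0.13 and receptors of 0.08.

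**Figure D1:**
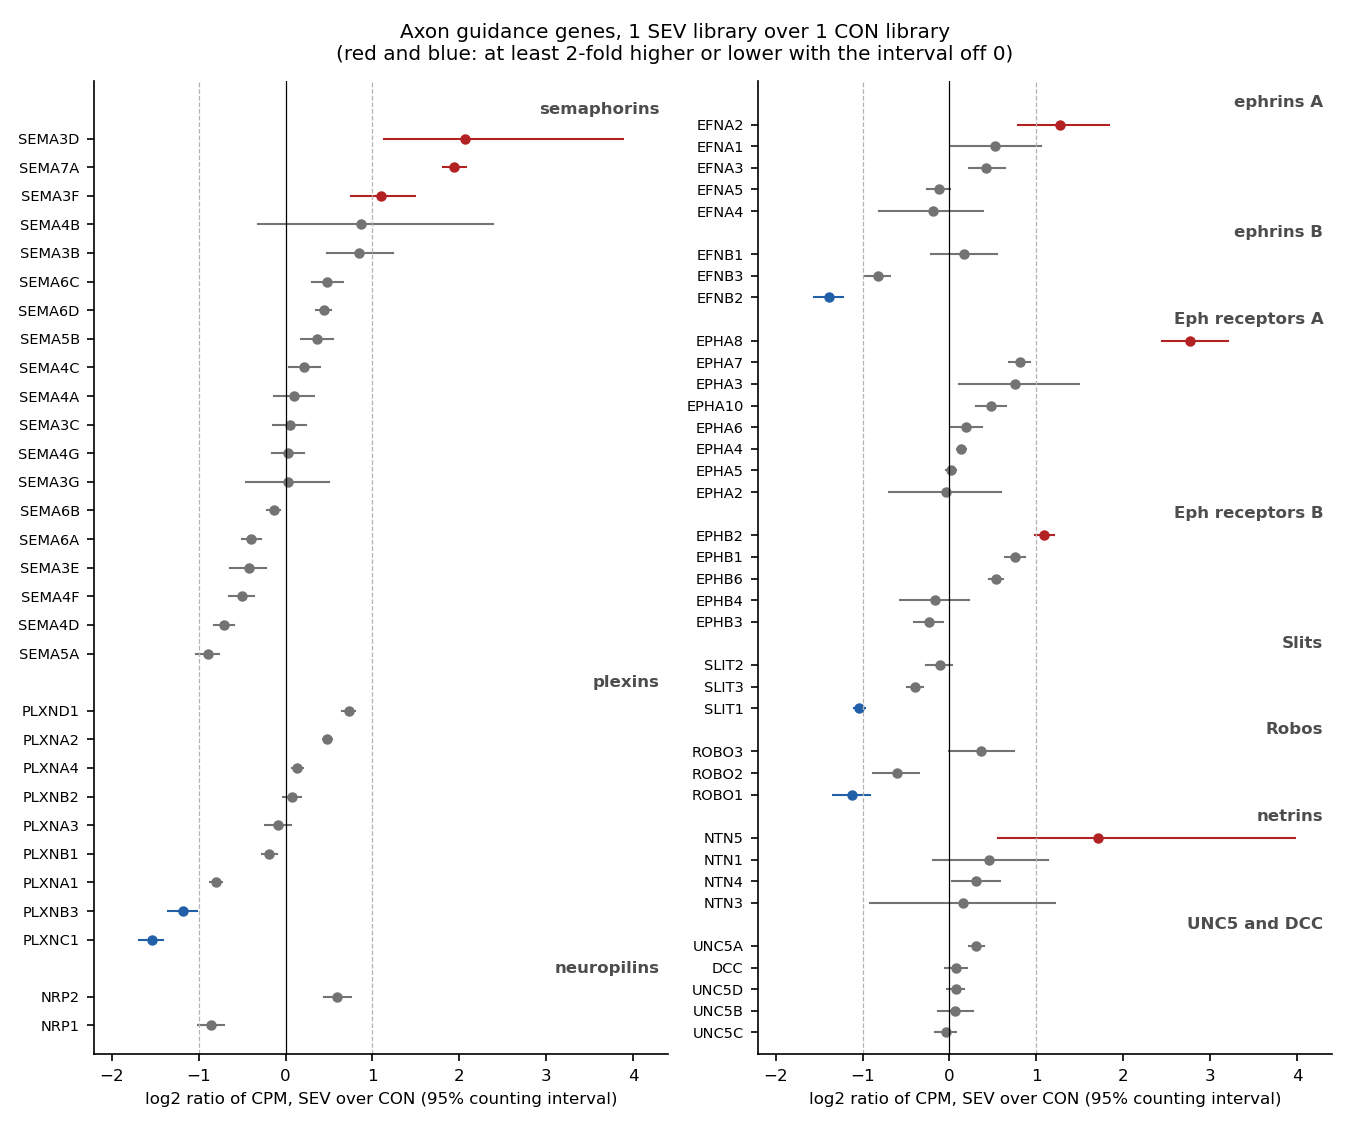
Log2 ratio of CPM in the SEV over the CON library for each of the 66 guidance genes (points), with its 95% counting interval (lines), grouped by family and ordered within it. Red points are the 7 genes at least 2-fold higher and blue points the 5 at least 2-fold lower. The widest intervals belong to genes with few reads such as NTN5 and SEMA3D.

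**Figure D2:**
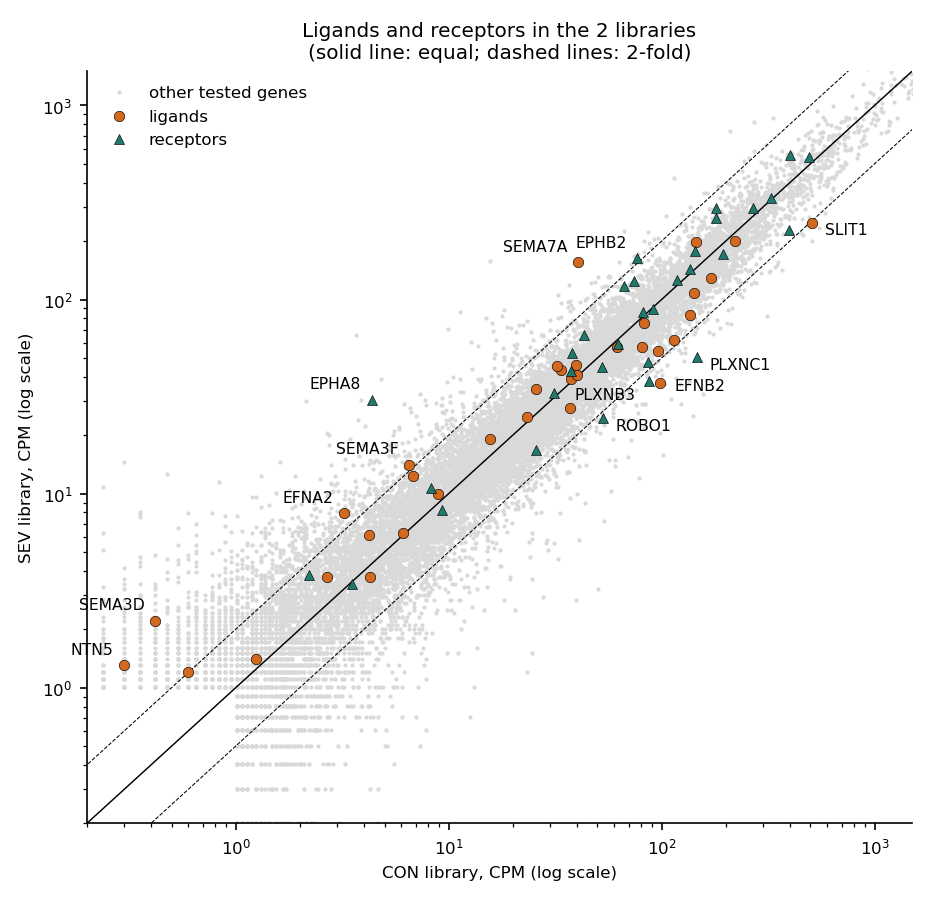
CPM of each gene in the CON library (horizontal, log scale) and the SEV library (vertical, log scale), with ligands as circles, receptors as triangles and the other tested genes in grey. EPHA8 (4.34 and 30.5 CPM) and SEMA7A (40.5 and 156 CPM) lie farthest above the upper 2-fold line among guidance genes that both libraries hold at 1 CPM or more. 281 tested genes with 0 reads in a library or beyond the axes are not drawn.

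Semaphorins were the largest family, with 19 genes. Of these, 3 were at least 2-fold higher in SEV, against 7.56% of all genes, and none was at least 2-fold lower, against 5.47%. Beyond counting error 8 were higher and 6 lower, against 28.4% and 28.1% of all genes, and the median was 0.10. SEMA7A, the only semaphorin held to the membrane by a lipid (GPI) anchor, had 681 reads in CON and 1550 in SEV. This corresponded to 40.5 and 156 CPM, a 3.85-fold higher level in SEV (log2 ratio 1.94, 95% interval 1.81 to 2.08). It ranked 372nd from the highest of the 18050 ratios.

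The secreted class 3 semaphorins spread widely. SEMA3F, which repels axons through neuropilin 2, had 109 reads in CON and 140 in SEV (6.49 and 14.1 CPM), giving a log2 ratio of 1.10 (interval 0.75 to 1.49). SEMA3D had only 7 and 22 reads (log2 ratio 2.06, interval 1.13 to 3.88). It reached 1 CPM in SEV alone and so had to be higher there, and the size of the difference was poorly determined. SEMA3B was higher by less than 2-fold, with 114 and 122 reads (0.84, interval 0.48 to 1.24). SEMA3E, which unlike the rest of its class binds plexin D1 without a neuropilin, was lower, with 626 and 275 reads (-0.43, interval -0.64 to -0.22). SEMA3C (0.05) and SEMA3G (0.03) did not differ beyond counting error.

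None of the transmembrane semaphorins met both conditions for a 2-fold difference. SEMA5A had the lowest ratio of the family, with 1929 reads in CON and 614 in SEV (115 and 61.8 CPM). Its log2 ratio was -0.89 (interval -1.03 to -0.76), while its relative SEMA5B was higher, at 0.36. SEMA4D, a ligand of plexin B1 that oligodendrocytes also make, had 2289 and 830 reads (-0.70, interval -0.82 to -0.59). SEMA4F was lower as well (-0.50) and SEMA4C slightly higher (0.22). SEMA4A (0.10), SEMA4G (0.03) and SEMA4B (0.87 with the prior count, from 10 and 12 reads, or 2.03-fold by CPM) had intervals that included equality. In class 6, SEMA6C (0.48) and SEMA6D (0.44) were higher, and SEMA6A (-0.39) and SEMA6B (-0.14) lower. SEMA6B had 3719 reads in CON and 1997 in SEV, or 221 and 201 CPM.

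Among the 9 plexins, the signalling receptors of the semaphorins, 2 were at least 2-fold lower in SEV and none was at least 2-fold higher. Over all genes tested these shares were 5.47% and 7.56%. PLXNC1, the plexin that binds SEMA7A, had the lowest ratio of all 66 genes. It had 2467 reads in CON and 500 in SEV, or 147 and 50.3 CPM, a 2.92-fold lower level (log2 ratio -1.54, interval -1.69 to -1.40). It ranked 420th from the lowest of all ratios. In the RefSeq gene table its span overlaps CEP83, whose own ratio was -0.35. How reads in an overlap were counted is not given in the sources used here.

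PLXNB3, a receptor for SEMA5A, had 1461 reads in CON and 379 in SEV (86.9 and 38.2 CPM). Its log2 ratio was -1.18 (interval -1.35 to -1.02), so this receptor and its ligand were both lower in SEV. The other B plexins differed little, with PLXNB1 at -0.19 (3272 and 1700 reads, 195 and 171 CPM, interval -0.27 to -0.10) and PLXNB2 at 0.08. Brain PLXNB3 is found mainly in oligodendrocytes, and all 10 myelin markers were lower in SEV, with a median of -1.29. The part of myelin in the PLXNB3 and SEMA4D values was not tested.

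The A plexins, which signal for class 3 semaphorins together with neuropilins and for class 6 semaphorins directly, did not move together. PLXNA1 had 6692 reads in CON and 2264 in SEV (398 and 228 CPM, log2 ratio -0.80, interval -0.87 to -0.74). PLXNA2 had 6710 and 5524 reads (399 and 556 CPM, log2 ratio 0.48, interval 0.43 to 0.53). These receptors thus lay on opposite sides of equality. PLXNA4 was slightly higher, with 4504 and 2926 reads (268 and 295 CPM, log2 ratio 0.14, interval 0.07 to 0.20), and PLXNA3 did not differ beyond counting error (-0.09). PLXND1, the receptor of SEMA3E that is also prominent in endothelial cells, had the highest ratio of the family. It had 3020 and 2956 reads, or 180 and 298 CPM (0.73, interval 0.65 to 0.80). The 7 endothelial markers had a median of 0.0002, with 1 higher and 1 lower beyond counting error. The part of endothelial cells in the PLXND1 value was not tested.

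The neuropilins lay in opposite directions. NRP1, the co-receptor of SEMA3A and also of vascular growth factors, had 1450 reads in CON and 474 in SEV (86.3 and 47.7 CPM), giving a log2 ratio of -0.85 (interval -1.01 to -0.70). NRP2, the co-receptor of SEMA3F, had 727 and 650 reads (43.3 and 65.4 CPM). At a ratio of 0.60 (interval 0.44 to 0.75), NRP2 was higher in SEV together with its ligand SEMA3F.

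The ephrins differed between their classes. Of the 5 A ephrins, which are GPI-anchored, 3 were higher beyond counting error (against 28.4% of all genes) and none was lower (against 28.1%). Their median was 0.43. EFNA2, which like EFNA5 helps to order topographic projections, was the one at least 2-fold higher, against 7.56% of all genes. It had 54 reads in CON and 79 in SEV (3.21 and 7.96 CPM, log2 ratio 1.27, interval 0.79 to 1.83). EFNA1 (0.52, 71 and 61 reads) and EFNA3 (0.43, 434 and 345 reads) were higher by less than 2-fold. EFNA4 had the lowest ratio of the class, with 72 and 37 reads (4.28 and 3.73 CPM, -0.19, interval -0.81 to 0.39), and EFNA5 was at -0.12, neither beyond counting error.

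The 3 B ephrins span the membrane and can signal back into their own cell. Beyond counting error, 2 of them were lower in SEV, against 28.1% of all genes. EFNB2, a marker of arteries and a partner of several EphB receptors on neurons, had 1644 reads in CON and 371 in SEV. This corresponded to 97.8 and 37.4 CPM, a 2.62-fold lower level (log2 ratio -1.39, interval -1.56 to -1.23). EFNB3, a repellent for axons at the midline, had 1623 and 540 reads (-0.83, interval -0.97 to -0.69). EFNB1 had 149 and 99 reads (8.87 and 9.97 CPM), and its ratio of 0.17 had an interval that included equality (-0.21 to 0.55). Summed over the 3 genes, the B ephrins came to 203 CPM in CON and 102 in SEV.

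The Eph receptors showed mostly higher values in SEV. In the A class 6 of 8 were higher beyond counting error and none was lower, with a median of 0.34. In the B class 3 of 5 were higher and 1 was lower, with a median of 0.54. Of all genes tested, 28.4% were higher and 28.1% lower in this sense. EPHA8 had 73 reads in CON and 303 in SEV, or 4.34 and 30.5 CPM. This 7.02-fold higher level was the largest ratio of the 66 genes (log2 ratio 2.77, interval 2.44 to 3.20) and ranked 145th from the highest of all genes.

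Among the other A receptors, EPHA7, which acts in cortical map formation and dendrite growth, had 1122 and 1161 reads (66.8 and 117 CPM, log2 ratio 0.81, interval 0.69 to 0.93). EPHA3 (0.76, from 37 and 38 reads), EPHA10, whose kinase domain is inactive (0.48, from 639 and 526 reads), and EPHA6 (0.19, from 631 and 427 reads) were also higher. EPHA4, which accepts ephrins of both classes, had 8279 reads in CON and 5376 in SEV, or 493 and 541 CPM. Its ratio of 0.14 (interval 0.09 to 0.19) was beyond counting error but small. EPHA5 was nearly equal, with 5514 and 3299 reads (328 and 332 CPM, 0.02, interval -0.04 to 0.08), and EPHA2 had the lowest ratio, at -0.03 (59 and 34 reads, 3.51 and 3.42 CPM, interval -0.69 to 0.60).

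EPHB2, which gathers NMDA receptors at excitatory synapses, had 1289 reads in CON and 1624 in SEV (76.7 and 164 CPM). Its log2 ratio was 1.09 (interval 0.99 to 1.20), so a level slightly under 2-fold higher lay within its counting error. EPHB1 had 1245 and 1240 reads (0.75, interval 0.64 to 0.87). EPHB6, which lacks kinase activity, had 3038 and 2603 reads, or 181 and 262 CPM (0.54, interval 0.46 to 0.61). EPHB3 was lower, with 887 and 444 reads (52.8 and 44.7 CPM, -0.24, interval -0.41 to -0.07), and EPHB4, the venous partner of EFNB2, had an interval that included equality (-0.17, 156 and 82 reads). The EphB receptors summed to 394 CPM in CON and 603 in SEV, opposite in direction to the B ephrins.

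**Figure D3:**
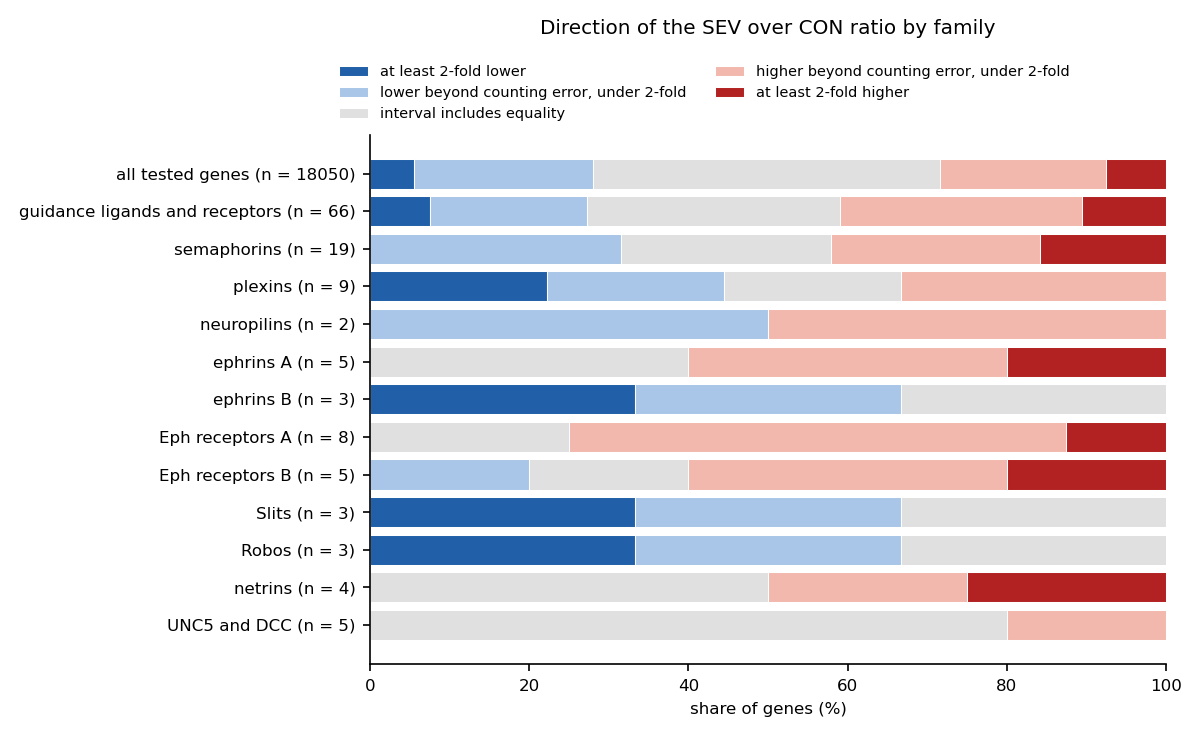
Share of genes (%) by direction of the SEV over CON ratio, for all 18050 genes tested, the 66 guidance genes and their 11 families (gene numbers beside the names). Light colours are differences beyond counting error but under 2-fold. The A ephrins, A Eph receptors, netrins, and UNC5 with DCC have no gene lower beyond counting error. The B ephrins, Slits and Robos have none higher.

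The Slits and Robos were lower in SEV where they differed. Beyond counting error, 2 of 3 Slits and 2 of 3 Robos were lower, against 28.1% of all genes. None was higher, against 28.4%. SLIT1, the Slit most restricted to the nervous system, had 8594 reads in CON and 2477 in SEV, or 511 and 249 CPM. Its log2 ratio was -1.04 (interval -1.10 to -0.97), so the level was 2.05-fold lower and a slightly smaller difference lay within its counting error. SLIT3 was lower by less, with 2865 and 1286 reads (-0.40, interval -0.49 to -0.30), and SLIT2, with 1037 and 566 reads (61.7 and 57.0 CPM), did not differ beyond counting error (-0.11, interval -0.27 to 0.03). Summed over the family, the Slits came to 744 CPM in CON and 436 in SEV.

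ROBO1, a main Slit receptor of cortical axons, had 896 reads in CON and 243 in SEV (53.3 and 24.5 CPM, log2 ratio -1.12, interval -1.33 to -0.92). ROBO2 had 431 and 167 reads (-0.60, interval -0.88 to -0.35), so both of these Slit receptors were lower in SEV. ROBO3, best known from commissural axons that cross the midline, had 139 and 106 reads (8.27 and 10.7 CPM). Its ratio of 0.36 had an interval of -0.01 to 0.74, which included equality.

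The netrin receptors were nearly equal in the 2 libraries. DCC, the attractive receptor, had 1375 reads in CON and 856 in SEV (81.8 and 86.2 CPM, log2 ratio 0.07, interval -0.05 to 0.20). UNC5B (0.07) and UNC5D (0.07) had intervals that included equality, and so had UNC5C, the lowest of the group, with 1539 and 884 reads (91.6 and 89.0 CPM, -0.04, interval -0.16 to 0.08). UNC5A was the one receptor beyond counting error, with 2424 and 1777 reads (144 and 179 CPM, 0.31, interval 0.22 to 0.40). In the RefSeq gene table its span overlaps HK3, whose 60 and 99 reads were few beside those of UNC5A.

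Netrin reads themselves were sparse, with 19.8 CPM in CON and 25.7 in SEV summed over 4 genes. NTN4, a netrin of basement membranes, had 262 and 191 reads (0.30, interval 0.03 to 0.58). NTN1, the classical DCC ligand, had 45 and 37 reads (0.45, interval -0.19 to 1.14), and NTN3 had 21 and 14 (1.25 and 1.41 CPM, 0.16, interval -0.91 to 1.22). In the RefSeq gene table the span of NTN1 overlaps STX8, which had more reads than NTN1 (107 and 78). NTN5 passed the 2-fold limit on 5 and 13 reads (0.30 and 1.31 CPM, 1.71, interval 0.56 to 3.98). NTN5 reached 1 CPM in SEV alone and so had to be higher there, and on so few reads the size of this difference was poorly determined.

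Several related genes diverged from each other, and 9 such pairs, chosen after their values were seen, were set side by side as reads of one gene per read of the other. Gene length enters each such value, and only the fold between the libraries is free of length and of scaling. SEMA7A reads per PLXNC1 read were 0.276 in CON and 3.10 in SEV, an 11.2-fold difference (95% counting interval 9.82 to 12.8). NRP2 reads per NRP1 read were 0.501 in CON and 1.37 in SEV, a 2.73-fold difference (interval 2.35 to 3.18). PLXNA2 reads per PLXNA1 read were 1.00 and 2.44, or 2.43-fold apart (interval 2.29 to 2.58). Thus the balance of both neuropilins, and of these A plexins, was shifted between the libraries however these were scaled.

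The same held for the other pairs. EPHB2 shifted 2.52-fold against EPHB3 (interval 2.19 to 2.89), EFNB1 2.94-fold against EFNB2 (interval 2.20 to 3.92) and ROBO3 2.81-fold against ROBO1 (interval 2.08 to 3.79). SEMA3F shifted 2.92-fold against SEMA3E (interval 2.17 to 3.94), PLXND1 4.83-fold against PLXNC1 (interval 4.33 to 5.39) and SLIT2 1.89-fold against SLIT1 (interval 1.69 to 2.12). As the pairs were picked for their divergence, these values are descriptions.

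The rest of the pathway was described from 3 lists. Of 21 other guidance ligands, receptors and adhesion molecules listed, 20 were in the table and tested, and none was 2-fold apart. Beyond counting error 10 were higher and 7 lower in SEV, against 28.4% and 28.1% of all genes, with a median of 0.06. CHL1, an adhesion molecule of the L1 family, had the lowest ratio (8136 and 2439 reads, -0.98). FLRT3, a Robo and UNC5 partner, had the highest (816 and 875 reads, 0.86), while its relative FLRT2, a ligand of UNC5D, was at -0.68.

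Of 39 intracellular effectors listed, 38 were tested. Beyond counting error 21 were lower and 10 higher, against 28.1% and 28.4% of all genes, and the median was -0.23. Of the 38, 1 was at least 2-fold lower and none at least 2-fold higher, against 5.47% and 7.56% of all genes. The lower gene was DPYSL3, a growth cone protein of the collapsin response mediator family, with 8575 reads in CON and 2000 in SEV (log2 ratio -1.34). GAP43, another growth cone protein, was at -0.95, and the highest ratio was that of ARHGEF11, which links B plexins to RHOA (0.82). CDC42 was listed with 3 and 8 reads and was not tested.

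Among 9 myelin-associated outgrowth inhibitors and their receptors, 3 were higher and 3 lower beyond counting error, against 28.4% and 28.1% of all genes. The list had a median of 0.09. MAG, a myelin protein that inhibits axon growth, was the one at least 2-fold lower (3057 and 778 reads, log2 ratio -1.21). None was at least 2-fold higher, and over all genes these shares were 5.47% lower and 7.56% higher. RTN4RL1, a relative of the Nogo receptor, had the highest ratio (1699 and 1970 reads, 0.97), and the Nogo receptor RTN4R was at 0.62.

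Several cell type markers moved between the libraries as well, and their part in the guidance gene values was not tested. Beside the marker counts stand 28.4% of all genes higher and 28.1% lower beyond counting error, and 7.56% and 5.47% at least 2-fold. All 10 neuron markers were present, summing to 9085 CPM in CON and 7492 in SEV, with 8 lower, 1 higher and a median of -0.33. The 7 cortical identity genes were also all present and summed to 859 and 1055 CPM. Within this list the deep-layer genes FEZF2 (-1.14) and BCL11B (-0.78) and the pyramidal neuron gene NEUROD6 (-2.69) were lower, and the upper-layer gene CUX2 was higher (1.12).

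The 10 myelin markers summed to 4136 CPM in CON and 2013 in SEV, and 8 of them were at least 2-fold lower. The 6 oligodendrocyte precursor markers were all lower by less than 2-fold (515 and 392 CPM, median -0.36), and the 8 astrocyte markers were lower in 5 cases and higher in 2 (6170 and 4309 CPM, median -0.43). The 8 microglia markers had a median of 0.25 (228 and 245 CPM). For the vessels, the 7 endothelial markers summed to 249 CPM in both libraries and the 5 mural markers to 419 and 472 CPM. Of the mural markers, the smooth muscle genes ACTA2 (1.24) and MYH11 (1.96) were at least 2-fold higher, RGS5 was higher by less (0.20), and NOTCH3 (-0.22) and PDGFRB (-0.14) were lower.

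The 5 meningeal fibroblast markers summed to 209 CPM in CON and 349 in SEV, with a median ratio of 0.06. COL1A1 (1.14) and COL1A2 (0.60) were higher, while DCN (0.06), LUM (-0.11) and COL3A1 (-0.44) had intervals that included equality. The 4 choroid plexus markers tested summed to 20.4 and 16.8 CPM, and FOLR1, with 0 reads in CON and 3 in SEV, was not tested. Within them TTR was at least 2-fold higher in SEV (2 and 31 reads) and CLIC6 at least 2-fold lower (126 and 20 reads, -1.82). The 4 red blood cell genes summed to 24.8 and 80.8 CPM, of which HBB alone held 20.8 and 67.7. HBA1 had 0 reads in CON and 70 in SEV, while HBA2 (61 and 49 reads) had an interval that included equality. The 11 activity-regulated immediate early genes in the table had a median of -2.05, and 9 were lower beyond counting error.

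**Figure D4:**
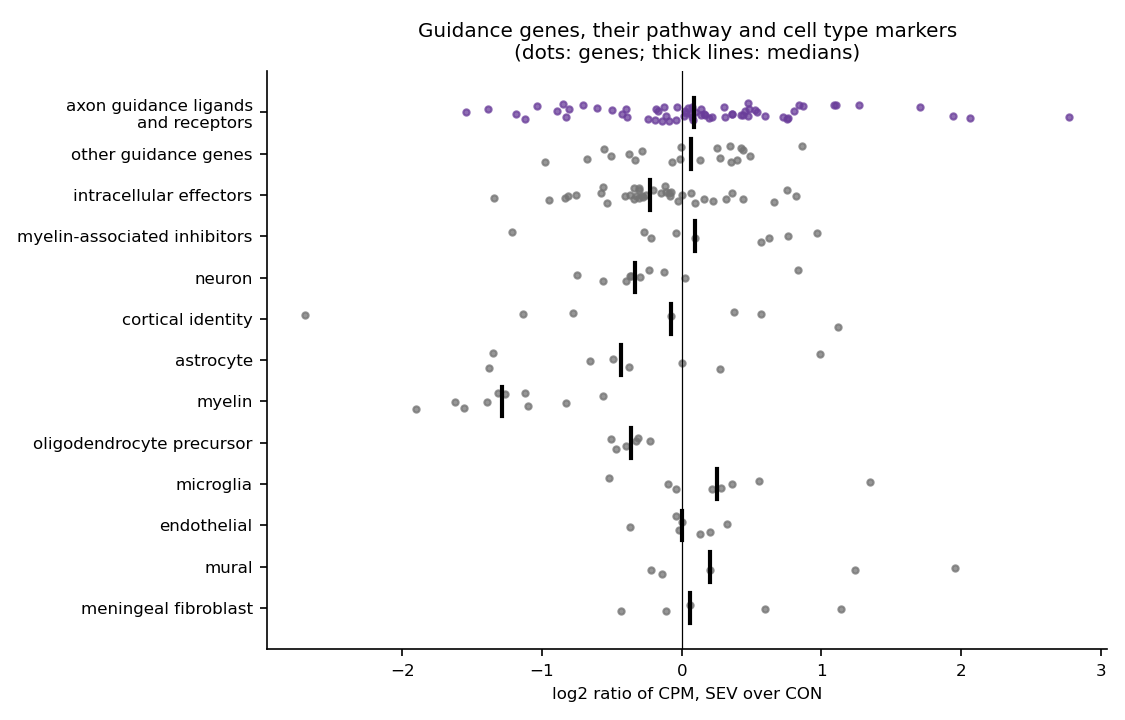
Log2 ratio of CPM, SEV over CON, for the 66 guidance genes (top row), the 3 pathway lists and the markers of 9 cell types or identities. Each dot is a tested gene and each thick line a median. The guidance genes lie on both sides of 0 (median 0.09), whereas all 10 myelin markers lie below it (median -1.29).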

How the data were processed

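Total RNA of frozen prefrontal cortex was sequenced, with 1 library for each of 2 animals. The authors deposited raw counts, as whole numbers of reads for each gene. The submitters' processing notes name HISAT2 2.0.4, and the counting tool, genome build and annotation are not given in the sources used here, so no coordinates or sequences are printed. Counts were scaled by TMM (edgeR 4.0.16, R 4.3.3) over the 18050 genes that reached 1 CPM in 1 library or both. Log2 ratios used a prior count of 2, and their 95% intervals were exact binomial (Clopper-Pearson) limits for a gene's sevoflurane share of its reads (scipy 1.17.1, Python 3.11.15). Pairs of genes were compared by the conditional odds ratio. The quasi-likelihood test needs replicates and was not run, so p-values are absent. Reads carried no stated molecular identifiers.

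Groups came from the sample titles. Genes called at least 2-fold higher or lower had a log2 ratio of at least 1 in size and an interval excluding equality. Full values are given for these genes, the extremes of each family, the 10 guidance genes with the most CPM, and, of the pathway lists, the genes counted in this way or else the extremes. Genes and lists were chosen with earlier results of these data known. All 66 symbols matched the RefSeq table of assembly MMU8v2.0, used for gene neighbours alone. By span, 9 of them overlap a protein-coding gene: SEMA4D, SEMA6A, PLXNB1, PLXNC1, EPHA6, EPHB4, NTN1, NTN5 and UNC5A. For EPHA6 (CRYBG3, 1098 reads in CON), EPHB4 (SLC12A9, 609) and NTN1 (STX8, 107), the neighbour had more CON reads than the guidance gene. The procedure was tested on simulated data that held counting error only, with 4-fold changes in genes of at least 5 CPM. Variation between animals and true changes of 2-fold were not simulated. The alternatives covered DESeq2 1.42.0 size factors, library totals, a prior count of 0.5, other filters on low values, a thinned control library and other fold limits.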

Additional observations from a re-analysis of the deposited data

How the results depend on the processing

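The 66 guidance genes kept their calls with DESeq2 size factors, library totals, a prior count of 0.5 and the control library thinned to the depth of the sevoflurane library, with 7 higher and 5 lower in each. Their median ratio ranged from 0.07 to 0.12 over the filters and scalings. All 451 single-gene values stayed within their counting intervals. This was partly fixed in advance, since a filter leaves a gene's ratio unchanged and a scaling shifts all ratios nearly alike. The other scalings shifted the ratios by up to 0.0053 (DESeq2 size factors) or 0.027 (library totals). Under a 5 CPM filter, 570 of the 13569 genes left were higher and 501 lower, and so were 5 and 5 of the 58 guidance genes left. With 1 read as the filter, 67 guidance genes entered, 7 higher and 6 lower, the sixth being SEMA3A. Of the 24432 genes in all under this filter, 1755 were higher and 1153 lower. With 1 CPM required in both libraries, a filter chosen after seeing the data, the counts over all 16364 genes were 715 and 614. The fold limit moved the counts by construction. At 1.5-fold, 13 guidance genes were higher and 11 lower (2604 and 2141 of all genes). At 4-fold 2 were higher, EPHA8 and SEMA3D, and 0 lower (352 and 221 of all genes). SEMA3D reached 1 CPM in SEV alone and so had to be higher there. No paired analysis was possible because there is only 1 library of each kind, so none could be left out either. The floor of 3 reads corresponds to 0.179 CPM in CON and 0.302 CPM in SEV. Few reads in either library widen the intervals of NTN5, SEMA3D, SEMA4B and NTN3, with 5, 7, 10 and 21 reads in CON.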

Other observations

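Sorted by how the ligands reach their receptors, a grouping made after the values were seen, the guidance genes gave the following values, beside 28.4% of all tested genes higher and 28.1% lower beyond counting error. The 6 GPI-anchored ligands (SEMA7A and the A ephrins) had a median log2 ratio of 0.47, with 4 higher and 0 lower beyond counting error in the sevoflurane library, and summed to 160 CPM (control) and 284 CPM (sevoflurane), most of this difference from SEMA7A. The 15 transmembrane ligands (semaphorins of classes 4 to 6 and the B ephrins) had a median of 0.03, with 4 higher and 7 lower. The 13 secreted ligands (class 3 semaphorins, Slits and netrins) had a median of 0.16, with 5 higher and 3 lower. Of the 5, SEMA3D and NTN5 passed the filter through the sevoflurane library alone and had to be higher, which leaves 3 higher and 3 lower without them. Their summed levels were 858 CPM (control) and 563 CPM (sevoflurane), a sum in which SLIT1 alone held 511 and 249 CPM.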
